A study of Danio rerio with 8 samples.

Results

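The genes described here encode the oxygen-sensing core of zebrafish cells, the hypoxia-inducible factor (HIF) alpha subunits and the Egln prolyl hydroxylases that mark them for destruction. They were chosen by name, with earlier results of these data known. The 9 names hif1aa, hif1ab, hif1al, hif1al2, epas1a, epas1b, egln1a, egln1b and egln3 were found as 10 of the 32520 gene rows. Of these 10 rows, 9 had reads and passed the filter on low counts, as did 17949 rows in all. Adult zebrafish with both copies of cox7a1 mutated (cox7a1-/-) were set against siblings of wildtype genotype, and the RNA came from the ventricle. The protein Cox7a1 belongs to complex IV of the respiratory chain, the site at which oxygen is consumed. The hearts of both genotypes had been cryoinjured, that is, part of the ventricle wall was killed by freezing, and were taken 7 days later, so no uninjured heart enters the comparison. Each genotype had 4 pools of 5 ventricles, numbered as replicates 1 to 4. A pool averages 5 fish, and the labels name neither the mutant allele nor the age of the adults.

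A HIF alpha subunit works as a pair with Arnt, its constitutive partner, and the pair binds hypoxia response elements near genes of glycolysis, angiogenesis and red cell production. With oxygen at hand, Egln enzymes hydroxylate prolines of the alpha subunit, Vhl recognises the hydroxylated form, and the protein is degraded. The alpha subunits are therefore governed largely at the protein level, which RNA counts do not measure. In mammals EGLN1 is the main hydroxylase in normal oxygen, while EGLN3 is itself induced by HIF. In the zebrafish heart, hypoxia and HIF signalling have been linked to the regrowth of muscle after injury. Teleosts carry pairs of copies (paralogs) of several of these genes, so that hif1aa and hif1ab correspond to mammalian HIF1A, and epas1a and epas1b to EPAS1, which encodes HIF-2 alpha. RefSeq lists Hif-3alpha as a synonym of hif1al.

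Suffixes of some paralogs were missing from the symbol table, in which hif1ab is HIF1A, both epas1 genes are EPAS1 and 3 rows are EGLN1. Rows were told apart by the 30 named genes around each of them, 15 on each side, compared with those around each name in RefSeq's GRCz12tu assembly. Case and a final a or b of the neighbours' symbols were ignored, so the paralog of a neighbour counted as shared too. The row taken as hif1ab shared 22 of 30 neighbours with hif1ab and 5 with hif1aa, and the epas1a and epas1b rows shared 26 and 24 with their own name against 2 and 3 with the other. The egln1a and egln1b rows shared 23 and 20 with their own name and 0 with the other. The HIF alpha rows lie in GRCz11 at chromosome 13, 31757331 to 31783663 (hif1aa), chromosome 20, 20326611 to 20355577 (hif1ab), chromosome 15, 25501864 to 25527581 (hif1al), chromosome 21, 27327442 to 27338639 (hif1al2), chromosome 12, 25775734 to 25830268 (epas1a) and chromosome 13, 8375612 to 8446341 (epas1b). The hydroxylase rows lie at chromosome 13, 49175624 to 49206713 (egln1a), chromosome 11, 31558006 to 31603692 (egln1b) and chromosome 17, 9912036 to 9936915 (egln3). The third EGLN1 row (ENSDARG00000105156) is a single exon of 864 bases, all of it inside exons of egln1b on the same strand, and had 0 reads in each of the 8 pools. Those 864 bases are 37% of the exons of egln1b, and a read that touches both rows is counted for neither under the authors' settings, so the level of egln1b is understated.

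Total counts ran from 41556101 to 69057989 per pool. The targeted gene cox7a1 held 59.5, 113, 88.5 and 194 CPM (counts scaled to a common library size) in mutant replicates 1 to 4, against 209.7, 278, 286 and 211 CPM in wildtype replicates 1 to 4, so that transcript remained in each mutant pool but lay below each wildtype pool. The two-sided exact permutation p for its log2 CPM was 0.0286, which no split of 8 pools into equal groups can undercut, and edgeR's quasi-likelihood test an adjusted p of 0.0776. Markers of 10 cell types that a ventricle could hold were also checked. Summed levels of the 11 cardiomyocyte marker genes were 34250 to 53990 CPM in mutant and 35760 to 42750 CPM in wildtype pools. Cardiomyocyte markers were thus abundant in each pool, but this sum does not tell ventricle from other heart tissue. Of the 77 markers in all 10 lists, 0 passed edgeR's test, against 2.02% of all tested genes. At an unadjusted p under 0.05 there were 12, against 18% of all tested genes. DESeq2 called 2 of the 77 and limma-voom 1. Over all 17949 genes DESeq2 called 619 higher and 488 lower, and limma-voom 224 and 146. By gene length the mutant pools were spread, with long minus short genes at 0.20, 0.01, 0.18 and -0.21 log2 units in replicates 1 to 4. Wildtype pools ran from -0.09 to 0.05, so mutant replicates 1 and 3 lay above that range and replicate 4 below it.

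Of the 9 tested members, hif1aa was lower in mutant ventricles and none of the other 8 passed the test. In its near copy hif1ab each mutant pool was above each wildtype pool, but the difference did not pass. By comparison, 2.02% of all tested genes were called, 1.14% higher and 0.88% lower, and genotypes did not overlap in 11.7% of them, against 2 of the 9 members. With 0 members called higher and 1 called lower, edgeR, DESeq2 and limma-voom gave the same counts. At an unadjusted p under 0.05, edgeR had 1 member higher and 1 lower, against 18% of all tested genes. The median log2 fold change over all tested genes was 0.00.

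**Figure D1:**
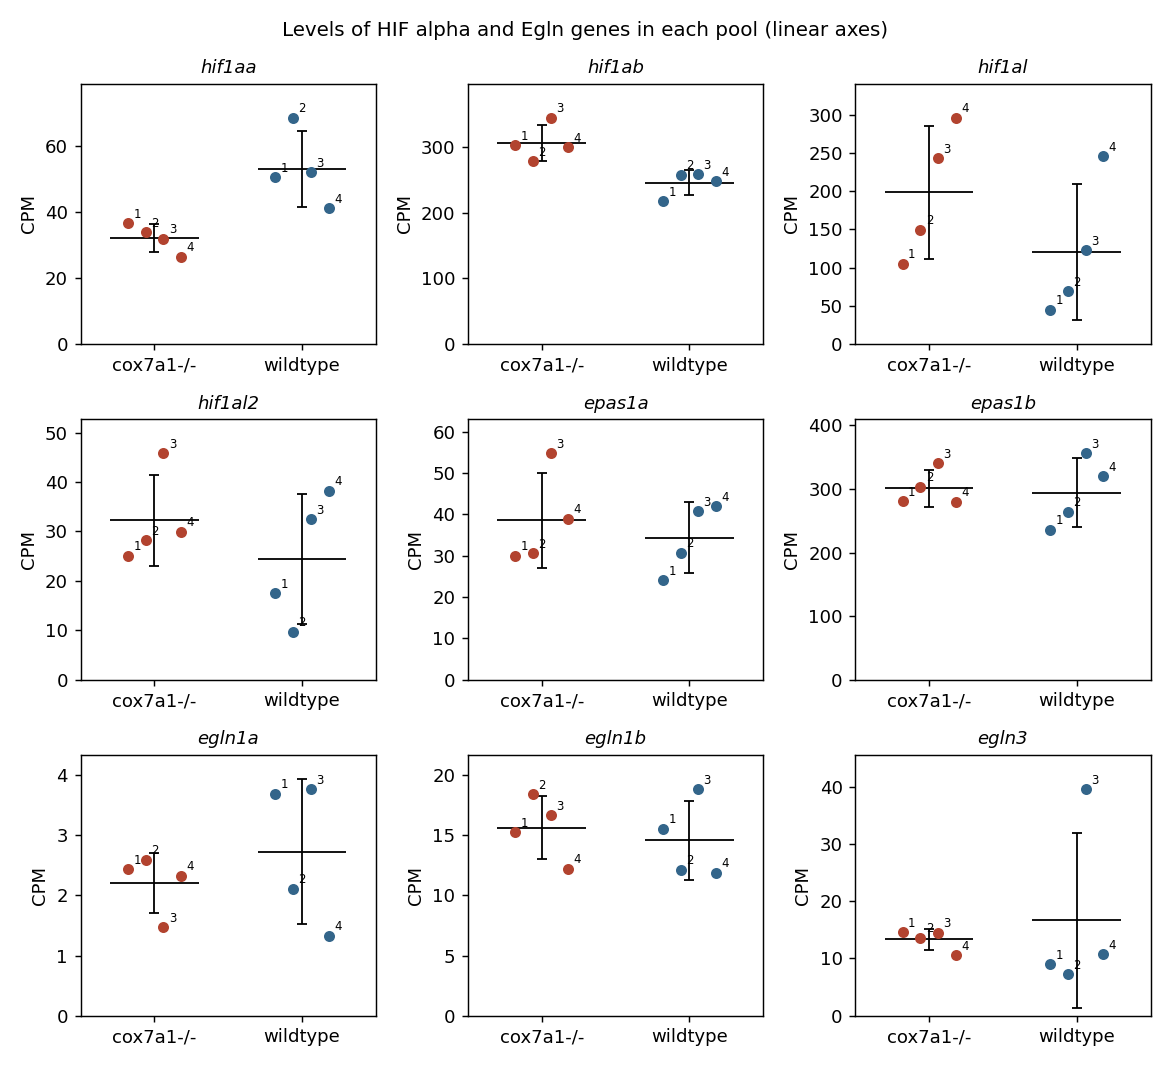
Levels of the 9 members with reads, in CPM on linear axes that start at 0, in 4 cox7a1-/- pools (red, left) and 4 wildtype pools (blue, right). Small numbers give the replicate, and the line and bar give the mean and SD of 4 pools. The genotypes separate in hif1aa (mutant pools at most 36.7 CPM, wildtype pools at least 41.2 CPM) and, in the other direction, in hif1ab.

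The subunit gene hif1aa, 1 of the 2 copies of HIF1A, had 36.7, 33.8, 31.9 and 26.5 CPM in mutant replicates 1 to 4, against 50.5, 68.7, 52.1 and 41.2 CPM in wildtype replicates 1 to 4. The highest mutant pool lay below the lowest wildtype pool. Its mean was 32.2 ± 4.29 CPM in mutant and 53.1 ± 11.4 CPM in wildtype pools (SD, n = 4 each), on 1451 to 3511 reads per pool. The log2 fold change was -0.72 ± 0.16 (SE; 95% interval -1.07 to -0.37), or 0.607-fold, with an edgeR adjusted p of 0.0457. This call lies close to the threshold. It was lost in 7 of 8 fits with 1 pool left out, at adjusted p-values of 0.0734, 0.0935, 0.132 and 0.0695 without mutant replicates 1, 2, 3 and 4 and of 0.0766, 0.117 and 0.114 without wildtype replicates 1, 2 and 3. Without wildtype replicate 4 it was kept (0.0252), the log2 fold change over these 8 fits ran from -0.84 to -0.57, and with library totals alone as scaling the adjusted p was 0.0789.

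The second copy, hif1ab, was the more abundant. It had 303, 278, 345 and 300.2 CPM in mutant replicates 1 to 4, against 218, 258, 259 and 248 CPM in wildtype replicates 1 to 4. Every mutant pool was above every wildtype pool, although mutant replicate 2 exceeded wildtype replicate 3 by little. The log2 fold change was 0.32 ± 0.118 (SE; 95% interval 0.06 to 0.58), or 1.25-fold, and edgeR's adjusted p of 0.187 did not pass. Removing any 1 pool left it between 0.26 and 0.36 with adjusted p-values of 0.154 or above.

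**Figure D2:**
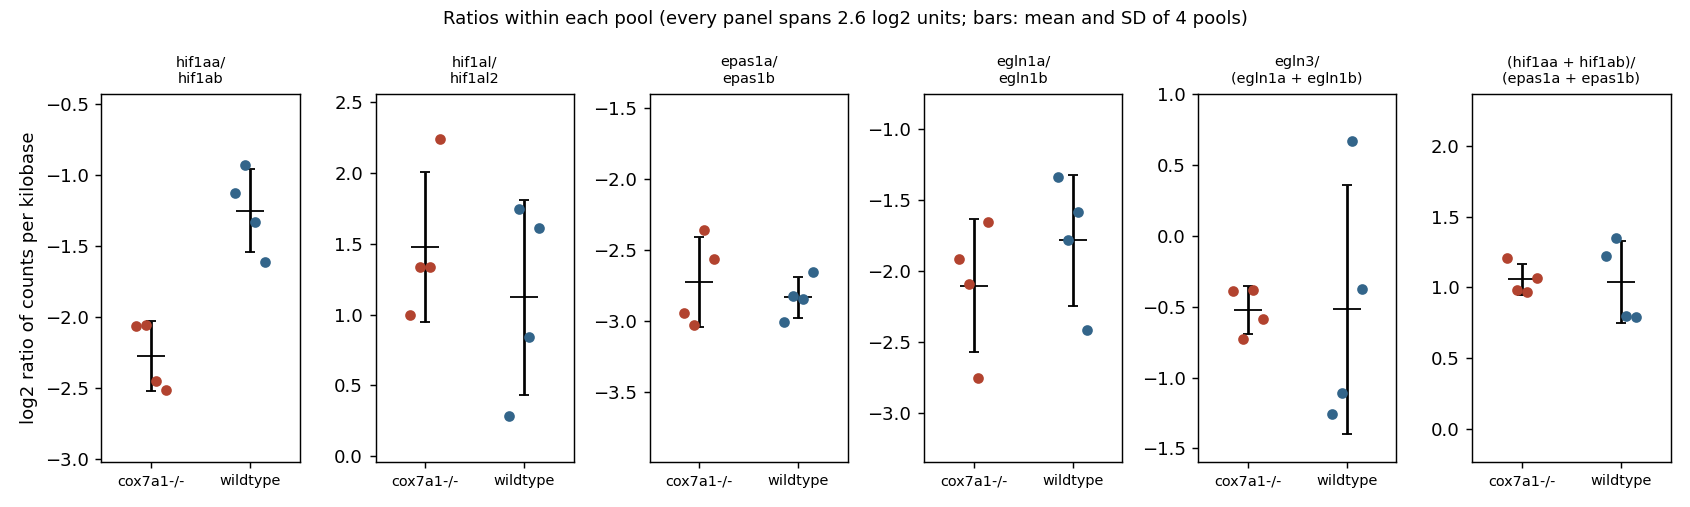
Log2 ratio of counts per kilobase of exon of pairs of members within each pool, in 4 cox7a1-/- pools (red, left) and 4 wildtype pools (blue, right), with mean and SD. Each panel spans 2.6 log2 units. For hif1aa over hif1ab every mutant pool is at -2.06 or below and every wildtype pool at -1.61 or above, while the genotypes overlap in the other 5 panels.

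Within a pool, the ratio of both copies does not depend on how libraries are scaled. The log2 ratio of hif1aa to hif1ab, each per kilobase of exon, was -2.06, -2.06, -2.45 and -2.52 in mutant replicates 1 to 4, against -1.13, -0.93, -1.33 and -1.61 in wildtype replicates 1 to 4. As a share, hif1aa made up 17.2 ± 2.43% of the summed per-kilobase level of both genes in mutant pools and 29.7 ± 4.18% in wildtype pools (SD, n = 4 each). The mean log2 ratio differed by -1.02 ± 0.191 (SE), with no overlap and a two-sided exact permutation p of 0.0286, the smallest possible. Adjusted over the 6 ratios compared, p was 0.172, which does not pass and could not have passed with 1 ratio at the smallest p. Leaving out 1 pool gave -1.14 to -0.92.

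In the other pairs the genotypes overlapped. The mean log2 ratio differed by 0.36 ± 0.434 (SE) for hif1al to hif1al2 (exact permutation p = 0.457), by 0.11 ± 0.174 for epas1a to epas1b (0.629) and by -0.32 ± 0.33 for egln1a to egln1b (0.4). For egln3 to both egln1 genes summed it was -0.01 ± 0.447 (exact p = 0.943), and for both HIF1A copies summed to both epas1 genes summed 0.02 ± 0.154 (exact p = 0.886). The summed HIF1A copies stood to the epas1 genes at a mean log2 ratio of 1.06 ± 0.111 in mutant and 1.04 ± 0.288 in wildtype pools (SD, n = 4 each). Leaving out 1 pool moved the hif1al to hif1al2 difference between 0.08 (wildtype replicate 1 out) and 0.56 (wildtype replicate 2 out), and that of egln1a to egln1b between -0.53 (without wildtype replicate 4) and -0.10 (without mutant replicate 3). Adjusted over the 6 ratios these p-values were 0.914 or above.

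The gene hif1al varied more between pools of the same genotype than any other alpha subunit. It had 105, 149.7, 243 and 296 CPM in mutant replicates 1 to 4, against 44.8, 68.9, 122 and 246 CPM in wildtype replicates 1 to 4. The highest pool exceeded the lowest by 2.81-fold among mutants and by 5.48-fold among wildtypes, where hif1ab spanned 1.24-fold and 1.19-fold. The genotypes overlapped, since wildtype replicate 4 was above 3 of the mutant pools. The log2 fold change was 0.72 ± 0.466 (SE), as large as that of hif1aa with the sign reversed, but its 95% interval of -0.30 to 1.74 was wide and edgeR's adjusted p was 0.454. Without wildtype replicate 4 it was 1.32 (adjusted p = 0.098) and without wildtype replicate 1 it was 0.44 (0.668), so its size depends on single pools. In both genotypes the level rose from replicate 1 to replicate 4. With the replicate number as a block the log2 fold change was 0.90 ± 0.172 (SE; edgeR adjusted p = 0.0468), but the labels do not say that equal numbers mark a pair. The gene lies 5.1 Mb from cox7a1 on chromosome 15, so variants linked to the mutant allele and the mutation itself cannot be told apart there.

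Its relative hif1al2 had 25.1, 28.2, 45.8 and 29.9 CPM in mutant replicates 1 to 4, against 17.5, 9.76, 32.5 and 38.2 CPM in wildtype replicates 1 to 4. Wildtype replicates 1 and 2, the pools lowest in hif1al, were also the lowest here, and the genotypes overlapped. The log2 fold change was 0.40 ± 0.352 (SE; 95% interval -0.37 to 1.17; edgeR adjusted p = 0.608). Without wildtype replicate 2 it was 0.13, and 0.68 with wildtype replicate 4 out. Exons of hif1al2 overlap those of DPP3 on the opposite strand by 58 bases, 2.3% of its exon length, and the counting kept strands apart.

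The epas1 genes encode HIF-2 alpha, which in mammals is prominent in endothelium and drives erythropoietin. The epas1b gene had 280.3, 303, 340.5 and 279.6 CPM in mutant replicates 1 to 4, against 236, 264, 356 and 319.9 CPM in wildtype replicates 1 to 4. Both the lowest and the highest of the 8 pools were wildtype, and the log2 fold change was 0.03 ± 0.147 (SE; 95% interval -0.29 to 0.36; edgeR adjusted p = 0.932). The epas1a gene had 30.01, 30.6, 54.7 and 39.0 CPM in mutant replicates 1 to 4, against 24.2, 30.8, 40.8 and 41.9 CPM in wildtype replicates 1 to 4. Its pools overlapped too, with a log2 fold change of 0.16 ± 0.22 (SE; 95% interval -0.32 to 0.65; adjusted p = 0.752). These intervals leave room for a difference of 0.82-fold to 1.28-fold in epas1b and of 0.80-fold to 1.56-fold in epas1a.

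Among the hydroxylases no member passed the test. The main enzyme in mammals is EGLN1, and its copy egln1b had 15.3, 18.4, 16.7 and 12.2 CPM in mutant replicates 1 to 4, against 15.6, 12.2, 18.8 and 11.9 CPM in wildtype replicates 1 to 4. Replicate 4 was the lowest in both genotypes, and the groups overlapped throughout. The log2 fold change was 0.10 ± 0.178 (SE; 95% interval -0.29 to 0.49; edgeR adjusted p = 0.821). Its copy egln1a was rare, at 2.43, 2.59, 1.47 and 2.32 CPM in mutant replicates 1 to 4 and 3.69, 2.11, 3.76 and 1.33 CPM in wildtype replicates 1 to 4, on 67 to 217 reads per pool. Its log2 fold change was -0.30 ± 0.335 (SE; 95% interval -1.04 to 0.43; edgeR adjusted p = 0.69). Without wildtype replicate 3 it was -0.11, and -0.55 with wildtype replicate 4 out.

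One wildtype pool set the result for egln3. It had 14.6, 13.6, 14.5 and 10.6 CPM in mutant replicates 1 to 4, against 9.002, 7.22, 39.6 and 10.8 CPM in wildtype replicates 1 to 4. Wildtype replicate 3 held more than any other pool, while 3 of the 4 mutant pools were above the remaining 3 wildtype pools. With all pools the log2 fold change was -0.32 ± 0.45 (SE; 95% interval -1.304 to 0.67; edgeR adjusted p = 0.768). Without wildtype replicate 3 its sign turned, to 0.57 with an adjusted p of 0.196, so no direction can be given. The same pool also had the highest level of the HIF asparaginyl hydroxylase HIF1AN among wildtypes, at 44.1 CPM against 33.0 to 33.7 CPM in the other 3.

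**Figure D3:**
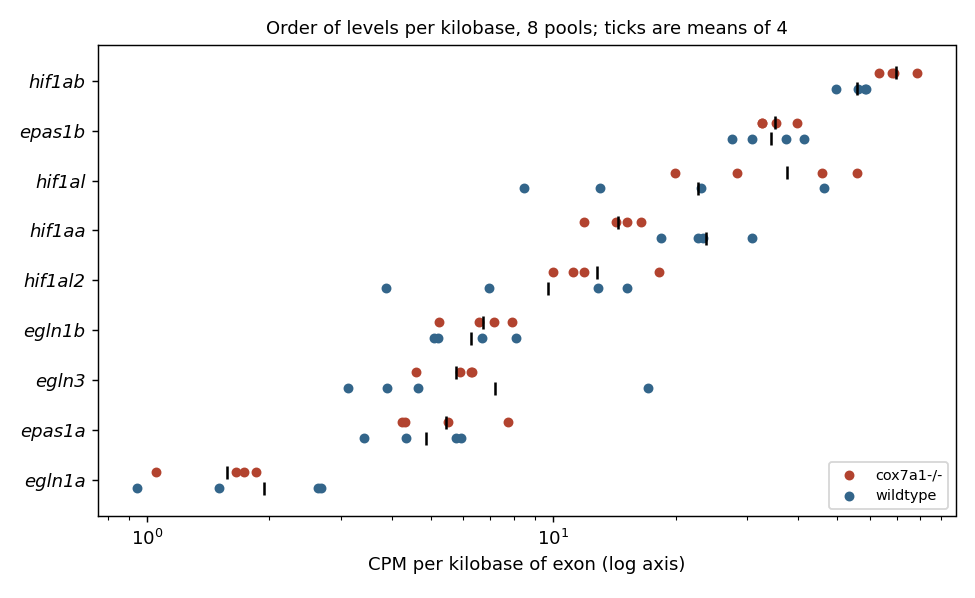
Level of each member per kilobase of exon on a log axis, in CPM per kilobase, with members in order of their mean over 8 pools. Red points (upper) are 4 cox7a1-/- pools, blue points (lower) 4 wildtype pools and ticks are means. The order runs from hif1ab at 62.7 to egln1a at 1.76 CPM per kilobase, and hif1al spans the widest range among the alpha subunits. The level of egln1b uses its full exon length and is understated.

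Levels of different genes were compared per kilobase of exon. In the injured ventricle hif1ab had the highest level, with 69.6 ± 6.34 CPM per kilobase in mutant and 55.8 ± 4.34 in wildtype pools (SD, n = 4 each), and lay above epas1b in 8 of 8 pools. Next came epas1b with 35.1 ± 3.33 in mutant and 34.2 ± 6.3 in wildtype pools, then hif1al with 37.5 ± 16.4 and 22.8 ± 16.9, and hif1aa with 14.4 ± 1.92 and 23.8 ± 5.13 CPM per kilobase. Their order was not firm, as epas1b exceeded hif1al in 5 of 8 pools and hif1al exceeded hif1aa in 5 of 8. By its mean hif1aa ranked 4 in mutant and 3 in wildtype pools, with hif1al at 2 in mutant and 4 in wildtype.

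Below them hif1al2 had 12.8 ± 3.66 CPM per kilobase in mutant and 9.72 ± 5.21 in wildtype pools (SD, n = 4 each). The hydroxylases egln1b, with 6.70 ± 1.13 in mutant and 6.25 ± 1.41 in wildtype pools, and egln3, with 5.76 ± 0.811 and 7.19 ± 6.63, lay together with epas1a, with 5.45 ± 1.63 and 4.86 ± 1.2 CPM per kilobase, and egln3 exceeded epas1a in 4 of 8 pools. With only the 1471 bases that egln1b does not share with the third EGLN1 row, its level was 10.6 ± 1.79 in mutant and 9.93 ± 2.23 CPM per kilobase in wildtype pools. On that length its means lay above those of egln3 and epas1a in both genotypes. The order of levels, the sum over hydroxylases and the ratios with egln1b use its full exon length. The lowest member in 8 of 8 pools was egln1a. Summed over the 6 alpha subunits the level was 152 to 204 CPM per kilobase in mutant and 118 to 179.5 in wildtype pools, and over the 3 hydroxylases 11.5 to 15.6 and 9.83 to 27.8. Per-kilobase levels rest on annotated exon lengths, 2233 bases for hif1aa and 4410 for hif1ab, which depend on how much of each untranslated end is annotated.

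**Figure D4:**
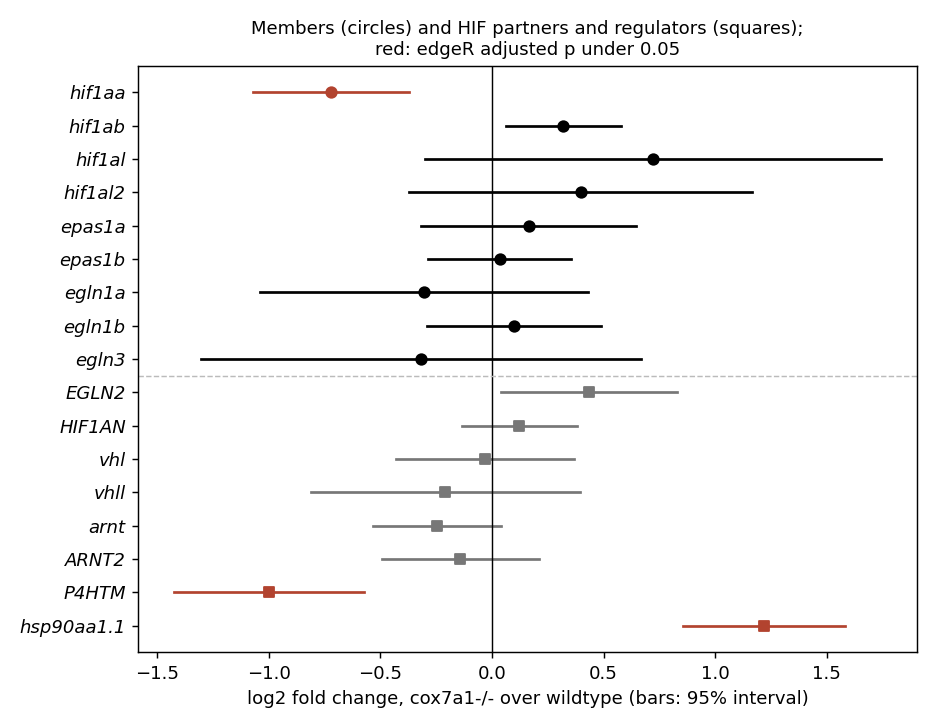
Log2 fold change of cox7a1-/- over wildtype (x axis) with its 95% interval for the 9 members (circles) and for 8 partners and regulators of HIF (squares), from edgeR over 17949 genes. Red marks an adjusted p under 0.05. Among members this holds for hif1aa (-0.72), and among the 8 others for the less abundant of 2 P4HTM rows (ENSDARG00000075209, -1.001) and for hsp90aa1.1 (1.22). The more abundant P4HTM row is not drawn.

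Genes that act on HIF alpha were described next, from a list of partners and regulators. It and the lists below were chosen with earlier results of these data known. Of its 37 tested genes, 1 rose and 1 fell, against 1.14% called higher and 0.88% called lower among all genes. A positive log2 fold change was seen in 15, against 50.4% of all tested genes, and the median was -0.07. The chaperone gene hsp90aa1.1, whose mammalian relatives bind and stabilise HIF-1 alpha, rose, with 752, 904, 939 and 823 CPM in mutant replicates 1 to 4 against 358, 492, 308 and 310.4 CPM in wildtype replicates 1 to 4. Its log2 fold change was 1.22 with an SE of 0.166 and an edgeR adjusted p of 0.0095. The more abundant HSP90AB1 of the same list averaged 2812 CPM in mutant and 2638 CPM in wildtype pools, at 0.09 ± 0.121 (SE; edgeR adjusted p = 0.749). P4HTM, a transmembrane prolyl hydroxylase that acts on HIF alpha in mammalian cells, is the symbol of 2 rows. The less abundant row (ENSDARG00000075209) fell, with 3.43, 2.49, 2.95 and 3.76 CPM in mutant replicates 1 to 4, against 5.97, 5.75, 8.17 and 5.43 CPM in wildtype replicates 1 to 4 (-1.001 ± 0.194, SE; edgeR adjusted p = 0.0279). The more abundant P4HTM row (ENSDARG00000071233) averaged 23.8 CPM in mutant and 22.4 CPM in wildtype pools, with a log2 fold change of 0.09 ± 0.13 (SE; edgeR adjusted p = 0.781). The groups did not overlap in hsp90aa1.1 or in the P4HTM row that fell. The call of hsp90aa1.1 was kept with each pool left out in turn, whereas that of the P4HTM row was lost without mutant replicate 1, 2 or 3 (adjusted p = 0.0643, 0.0705 and 0.0957) and without wildtype replicate 1, 2 or 3 (0.0589, 0.0647 and 0.0898). It was also lost with the replicate number as a block (0.0576).

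The remaining hydroxylases and partners did not pass the test. The third Egln gene, EGLN2, had 32.4, 36.3, 52.6 and 39.5 CPM in mutant replicates 1 to 4, against 28.7, 21.8, 35.6 and 32.9 CPM in wildtype replicates 1 to 4. Its log2 fold change of 0.43 ± 0.18 (SE) had an edgeR adjusted p of 0.231, and it too lies on chromosome 15, 12.1 Mb from cox7a1. The ubiquitin ligase subunit vhl, which binds hydroxylated HIF alpha, averaged 12.8 ± 2.29 CPM in mutant and 13.1 ± 2.9 CPM in wildtype pools (SD, n = 4 each), with a log2 fold change of -0.03 ± 0.182 (SE). The related vhll had -0.21 ± 0.275, HIF1AN 0.12 ± 0.117, and the dimer partners arnt and ARNT2 had -0.25 ± 0.131 and -0.14 ± 0.161, with edgeR adjusted p-values of 0.75, 0.636, 0.35 and 0.697. Of the others, the smallest p-values belonged to VCP (0.42 ± 0.108, adjusted p = 0.0695), COMMD1 (-0.43 ± 0.138, 0.132), NPAS1 (1.42 ± 0.494, 0.164) and the ubiquitin ligase SIAH1 (-0.88 ± 0.311, 0.169). The values of NPAS1 rest on only 10 to 42 reads per pool.

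**Figure D5:**
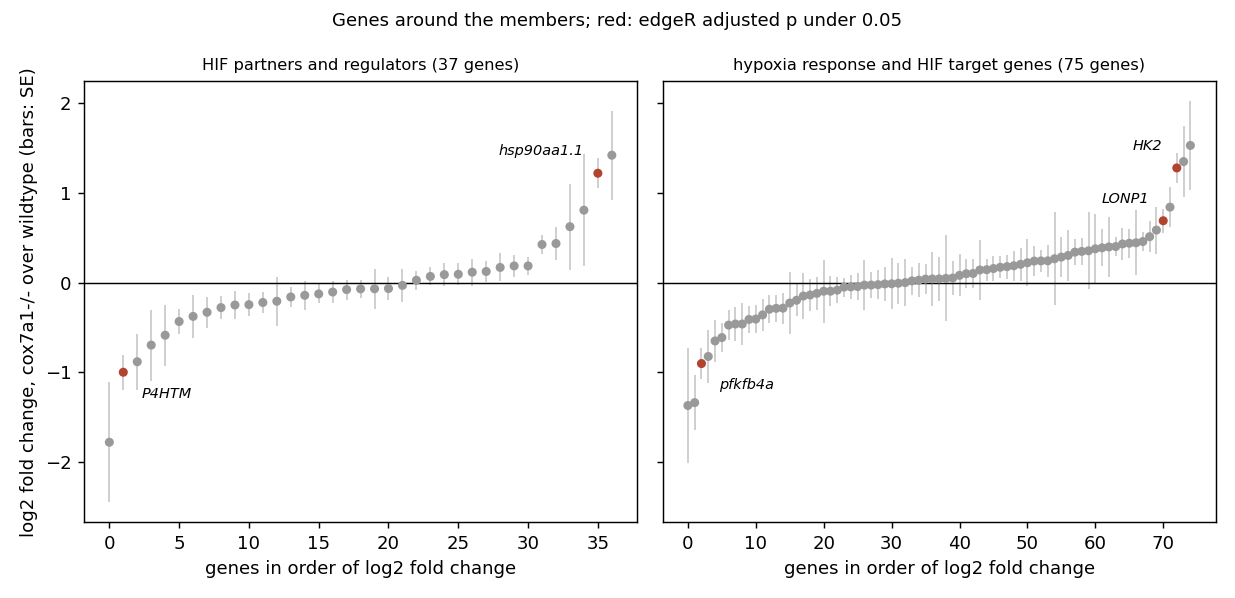
Log2 fold change of cox7a1-/- over wildtype with its SE (y axis) for 37 partners and regulators of HIF (left) and 75 genes of the hypoxia response (right), each in its own order of fold change. Red marks genes with an edgeR adjusted p under 0.05, which lie on both sides of 0 in both panels.

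Downstream, 75 genes of the hypoxia response were tested, most of them known HIF targets in mammals. Of these 2 rose and 1 fell, against 2.02% called among all genes. A positive log2 fold change was found in 42 of the 75, against 50.4% of all tested genes, and the median was 0.04. Hexokinase 2 (HK2), which traps glucose in the cell, rose, with 20.7, 21.5, 16.1 and 14.9 CPM in mutant replicates 1 to 4 against 9.32, 7.77, 6.29 and 6.79 CPM in wildtype replicates 1 to 4. The mitochondrial protease LONP1 also rose, with 36.5, 43.5, 43.8 and 50.4 CPM in mutant against 28.4, 31.8, 24.3 and 23.6 CPM in wildtype replicates 1 to 4. In contrast pfkfb4a, which sets the level of a glycolytic activator, fell, with 29.5, 33.5, 37.2 and 45.2 CPM in mutant against 52.4, 75.2, 85.8 and 58.7 CPM in wildtype replicates 1 to 4. No pool of one genotype reached into the other in these 3 genes.

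Their log2 fold changes were 1.28 ± 0.17 for HK2, 0.69 ± 0.135 for LONP1 and -0.90 ± 0.177 for pfkfb4a (SE), with edgeR adjusted p-values of 0.00802, 0.0285 and 0.0291. The call of HK2 was kept with each pool left out. The more abundant HK1 of the same list averaged 637 CPM in mutant and 483 CPM in wildtype pools. Its log2 fold change was 0.40 ± 0.111 (SE), and its edgeR adjusted p of 0.0868 did not pass. The LONP1 call was lost without mutant replicate 2 or 3 (adjusted p = 0.0666 and 0.0914) and without wildtype replicate 1, 3 or 4 (0.0649, 0.099 and 0.0515). It was also lost with library totals alone (0.051), with the replicate block (0.0623) and with the length trend removed and mutant replicate 4 out (0.0639). The call of pfkfb4a was lost without mutant replicate 1, 2 or 3 (0.075, 0.0797 and 0.0946) and without wildtype replicate 2 or 3 (0.0894 and 0.0923). Its paralog in the list, the row PFKFB4, had the opposite sign and did not pass. That row averaged 25.3 CPM in mutant and 18.7 CPM in wildtype pools, at 0.44 ± 0.162 (SE; edgeR adjusted p = 0.187). Just short of the threshold stood igfbp1b, which encodes an insulin-like growth factor binding protein, at -1.34 ± 0.307 (adjusted p = 0.0502). The nuclear receptor gene rorab, at 0.46 ± 0.108 (0.0547), did not pass either. Levels of igfbp1b averaged 2.30 CPM in mutant and 5.84 CPM in wildtype pools. The more abundant IGFBP1 row averaged 23.8 and 19.8 CPM, at 0.265 ± 0.52 (adjusted p = 0.837). The clock repressor gene BHLHE41 had 0.84 ± 0.223 (adjusted p = 0.0776) and the mitophagy receptor gene BNIP3 -0.61 ± 0.166 (0.0818).

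Heat shock and immediate early genes, which respond to sample handling among other things, were taken as a list. Their summed level was 6275 to 7303 CPM in mutant and 4335 to 5634 CPM in wildtype pools. Of 28 genes, 5 were called higher and 0 lower, against 2.02% called among all genes. As this list was chosen with earlier results of these data known, the share is given as a description. Of the 28, 24 had a positive log2 fold change, against 50.4% of all tested genes, and the median was 0.30. Besides hsp90aa1.1, the called genes were the chaperone genes hsp70l (log2 fold change 1.68 ± 0.182, SE; edgeR adjusted p = 0.00371), HSPA4 (ENSDARG00000004754; 1.00 ± 0.132, 0.00795), hspa1b (1.34 ± 0.211, 0.0142) and HSPH1 (0.93 ± 0.19, 0.0349). Next by p came hsp70.1 (1.29 ± 0.314, adjusted p = 0.0612), dnajb1a (0.49 ± 0.13, 0.0781), HSPA8 (ENSDARG00000068992; 0.41 ± 0.115, 0.0938) and a second HSPA4 row (ENSDARG00000018989; 0.32 ± 0.104, 0.135), which did not pass. The called genes were heat shock genes, and no immediate early gene passed. Of the immediate early genes, as examples chosen after their values were seen, klf2a had a log2 fold change of 0.19 ± 0.128 (edgeR adjusted p = 0.477), JUN 0.01 ± 0.207 (0.993) and egr1 -0.13 ± 0.287 (0.864). These genes ran from ier2a at -0.29 ± 0.235 (0.567) to FOSL1 at 0.86 ± 0.604 (0.494), with ATF3 at 0.85 ± 0.948 (0.696) and NR4A1 at 0.57 ± 0.413 (0.51). Without mutant replicate 3 the number called was 3, hspa1b being at an adjusted p of 0.055 and HSPH1 at 0.111. HSPH1 was also lost without mutant replicate 1 or 2 (0.0931 and 0.0772), without wildtype replicate 1, 3 or 4 (0.0852, 0.102 and 0.0518) and with library totals alone (0.0623). The part of these genes in the result for hif1aa was not tested. The summed level of 8 macrophage markers was 734 to 1035 CPM in mutant and 866 to 1151 CPM in wildtype pools, and that of 10 endothelial markers 1113 to 1439 and 1212 to 1495 CPM. Both overlapped between genotypes, as did the sums of the other cell type lists. Median log2 fold changes of the 10 lists ran from -0.40 (T and B lymphocyte) to 0.53 (erythrocyte), with skeletal muscle at 0.42. Erythrocyte markers summed to 705 to 1873 CPM in mutant and 679 to 1044 CPM in wildtype pools. The part of these cell types in the result for hif1aa was not tested. In bulk tissue fewer cells of a type and less RNA per cell cannot be told apart.

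By pattern over the 8 pools, the genes most like hif1aa among 11801 named genes were KLHL30, ATF7 and PLA2G4A, with Pearson correlations of log2 CPM of 0.97 each. Within genotypes, with each group's mean removed, these correlations were 0.96, 0.90 and 0.90. The likest genes out of many reach high values with 8 pools that share libraries, so these are given as a description. Of the 3, KLHL30 (log2 fold change -1.09, edgeR adjusted p = 0.0128) and PLA2G4A (-0.68, 0.0403) were also called lower, and ATF7 (-0.33, 0.14) was not. The genotype difference was left in when they were picked, so a direction shared with hif1aa is in part built into the choice.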

How the data were processed

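RNA sequencing counts from 8 pools of injured zebrafish ventricle, 4 per genotype, were used. Per the labels, libraries were made with a directional kit. Reads on exons were assigned to genes by the authors with featureCounts 2.0.3, strand setting 2, and Ensembl 109 on GRCz11, per the file headers; STAR and fastp are named in the submitters' processing notes, with no version. The deposited files thus hold unnormalized counts, with a column for each pool, beside exon lengths in bases. No column was left unused (0 columns). The recorded command sets no option for reads with several places or several genes, which are then not counted, so near-identical stretches of paralogs lose reads. Reads are not tied to molecules, so depth gives counting error only.

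Genes were filtered with filterByExpr at a minimum count of 10, libraries scaled by TMM and genotypes compared in edgeR 4.0.16 (R 4.3.3) by its quasi-likelihood test, p-values adjusted by Benjamini-Hochberg over 17949 genes at 0.05. The SE is the log2 fold change over the square root of F. Ratios used counts plus 0.5 per kilobase and exact permutation tests. Alternatives were other scalings, filters, tests (DESeq2 1.42.0, limma-voom 3.58.1), a replicate block, a length trend removed (lowess span 0.3), and each pool left out. Members and lists were chosen with earlier results of these data known. Genes named are the members, cox7a1, and in each list those past the threshold and the 4 next by p, with the arnt and vhl rows, EGLN2 and HIF1AN. The genes most like hif1aa are named too. Outside this rule, paralogs or relatives of named genes and the immediate early genes were added after their values were seen. For lists, a name was matched by symbol or with its paralog suffix dropped; 2 of 39, 4 of 75 and 1 of 27 names were not matched. P-values measure the spread between pools of 5 ventricles, not between individual fish.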

Additional observations from a re-analysis of the deposited data

Results flagged for a closer look

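In 86 groups of 4 pools, 5 held a pool far from the other 3 by Dixon's test, where chance gives about 1 in 20. In wildtype pools egln3 stood at 39.6 CPM in replicate 3, against 7.22 to 10.8 CPM in the other 3. HIF1AN was at 44.1 CPM in the same pool, against 33.0 to 33.7 CPM, and NPAS1 at 0.299 CPM, against 0.187 to 0.198 CPM. The heat shock gene HSPA4 (ENSDARG00000004754) was at 256 CPM in mutant replicate 3, against 231 to 234 CPM in the other mutant pools, and at 149 CPM in wildtype replicate 2, against 108 to 113 CPM in the other wildtype pools. Wildtype replicate 3 is thus the pool flagged in 3 of the 5 cases. Of these, the flag of NPAS1 rests on a gene with only 10 to 42 reads per pool.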

How the results depend on the processing

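The direction of hif1aa, hif1ab, hif1al, hif1al2 and egln1a was the same under each of 17 alternatives. The call of hif1aa was lost with library totals alone (log2 fold change -0.74) and with the length trend removed and mutant replicate 4 left out (-0.62), so the number of members called was 0 there; with 1 pool left out it was 0 to 1 and the log2 fold change -0.84 to -0.57. Titles number the replicates alike in both genotypes. In the column names of the counts the numbers are not the same in both genotypes. Same-numbered pools deviated together little (correlations from -0.07 to 0.25, best with the own number for 1 of 4), which cannot exclude an order shared by single genes. The level of hif1al rose with replicate number in both genotypes, and its SE was 0.172 with a replicate block, against 0.466 without. With a replicate block hif1al was 0.90 (edgeR adjusted p = 0.0468) and the members called were 2, the less abundant P4HTM row (adjusted p = 0.0576) and LONP1 (0.0623) lost their calls, SIAH1 passed (-0.81, 0.0432), egln3 was 0.048, genes called over all were 126 higher and 84 lower in place of 205 and 158, and the hif1aa to hif1ab ratio had the same difference, -1.02, with a sign-flip exact p of 0.125, the smallest 4 pairs allow. Values near 0 changed sign: egln3 was 0.037 with limma-voom and -0.57 to 0.57 with 1 pool left out; epas1b was -0.032 with the length trend removed, -0.056 with mutant replicate 4 also out, and -0.067 to 0.14 with 1 pool left out, where epas1a ran from -0.05 to 0.26, egln1b from -0.003 to 0.246 and vhl from -0.14 to 0.11 (0.031 with the length trend removed). Ratios with 1 pool left out ran from -0.014 to 0.21 (epas1), -0.25 to 0.39 (egln3 to egln1) and -0.067 to 0.119 (HIF1A copies to epas1).

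Genes called over all were 60 higher and 97 lower with library totals alone, 619 and 488 with DESeq2, and 29 to 273 and 37 to 200 with 1 pool left out. The cox7a1 log2 fold change passed the test without a filter (-1.11), with DESeq2 (-1.12), with the length trend removed (-1.07) and with mutant replicate 4 also out (-1.35), and ran from -1.50 to -0.91 with 1 pool left out. In place of 2, 3 and 5, genes called in the lists of partners, hypoxia response and heat shock were 4, 9 and 8 with DESeq2 and 1 to 3, 1 to 5 and 3 to 6 with 1 pool left out; the hypoxia response had 5 without a filter, with the filter at 1 CPM in 4 or more pools and with the length trend removed. The causes of these shifts were not tested. Among members, egln1a had the fewest reads, 67 in its lowest pool.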
